A study of Homo sapiens with 12 samples.

Results

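The response to JQ1 that MDA-MB-231 and HCC70 cells had in common was taken from 12 expression arrays. A gene entered it when its level changed in a model of cell line plus treatment (6 JQ1 arrays against 6 vehicle arrays), changed in each line by itself, and kept the same sign with the smaller log2 change at least 0.7 of the larger. By this rule 817 of the 14884 genes tested belonged to it, of which 349 rose and 468 fell. MDA-MB-231 and HCC70 are human triple-negative breast cancer lines, and each was kept for 72 hours in 500 nM JQ1 or in 0.1% DMSO, the vehicle. There were 4 groups of 3 arrays: MDA-MB-231 with vehicle, MDA-MB-231 with JQ1, HCC70 with vehicle and HCC70 with JQ1. Each line is 1 established line in culture, 1 dose and 1 time were used, and nothing in the labels ties the arrays of a group to separate cultures, so p-values describe the spread among these arrays, which may be technical.

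JQ1 occupies the acetyl-lysine binding pockets of the BET family of bromodomain proteins, which includes BRD2 and BRD3. These proteins sit on acetylated chromatin at promoters and enhancers and help recruit P-TEFb, the kinase that releases paused RNA polymerase into elongation, so that BET inhibitors lower the transcription of some genes sharply while others rise. Cell state genes, MYC, cell-cycle genes and inducible immune genes are known as sensitive in many cancer cells.

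Values are deposited log2 signals, so a change of 1 is a doubling in linear signal, and the number of arrays limits the precision of every value. Array medians lay between 6.16 and 6.19 with JQ1 and between 6.22 and 6.26 with vehicle, and upper quartiles of all arrays between 7.52 and 7.77. In 3 groups (JQ1-treated HCC70 and both treatments of MDA-MB-231) the array numbered 3 had the lowest upper quartile, so list counts that moved by over 1.5 times without those 3 arrays are also given that way. Arrays of the same group correlated at 0.989 to 0.995 across genes, and arrays of different lines at 0.875 to 0.90. The labelled lines were checked against 1 of 11 measured mesenchymal markers (AXL) and 1 of 15 measured epithelial markers (ESRP1). Levels of most of the others are not given here. Vehicle-treated MDA-MB-231 had AXL at 12.55 and ESRP1 at 4.56, and vehicle-treated HCC70 had AXL at 5.70 and ESRP1 at 11.08, so the mesenchymal marker was high and the epithelial splicing factor low in MDA-MB-231 and the reverse held in HCC70. Among markers of other cell types, 1 of 4 measured blood cell genes (CD68, a lysosomal protein; not called without any 1 of the HCC70 arrays or without those 3 arrays) was called and 0 of 6 stromal, endothelial and adipocyte genes were. The latter lay between 2.77 (DCN) and 5.76 (PLIN1) in all groups' means.

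Over both lines JQ1 changed 3828 genes at an adjusted p under 0.05 (limma with Benjamini-Hochberg adjustment over all 14884 genes), which is 25.7% of those tested. Of these genes 1555 rose (10.4% of genes tested) and 2273 fell (15.3%). Falls made up 59.4% of the calls on the deposited scale, 47.7% (2230 rose, 2036 fell) after quantile normalization and 43.5% (2414 rose, 1858 fell) after centring each array on its median, so the balance of rises and falls rests on the scale. Large changes were mostly falls: 53 genes rose and 290 fell by at least 1 on the log2 scale.

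The 3828 genes were not all shared equally by the lines. In each line by itself 1634 of them were called with the same sign, 609 rising (4.09% of genes tested) and 1025 falling (6.89%). A further 1199 were called in MDA-MB-231 and not in HCC70, 726 in HCC70 and not in MDA-MB-231, and 268 in neither line alone, where only the pooled 6 arrays per treatment reached the threshold. The remaining gene, CP, which encodes the copper carrier ceruloplasmin, was called with opposite signs in the lines. The 1634 shared calls were 39.5% of the 4139 calls of MDA-MB-231 (27.8% of genes tested) and 50.6% of the 3229 calls of HCC70 (21.7%). Of the shared falls 631 were larger in MDA-MB-231 and 394 larger in HCC70, whereas the shared rises were 301 and 308, and 168 genes were called in each line with opposite signs. Across all genes the changes of the lines correlated at r = 0.422 (Spearman rho = 0.383), a description over genes, which are not independent replicates.

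**Figure D1:**
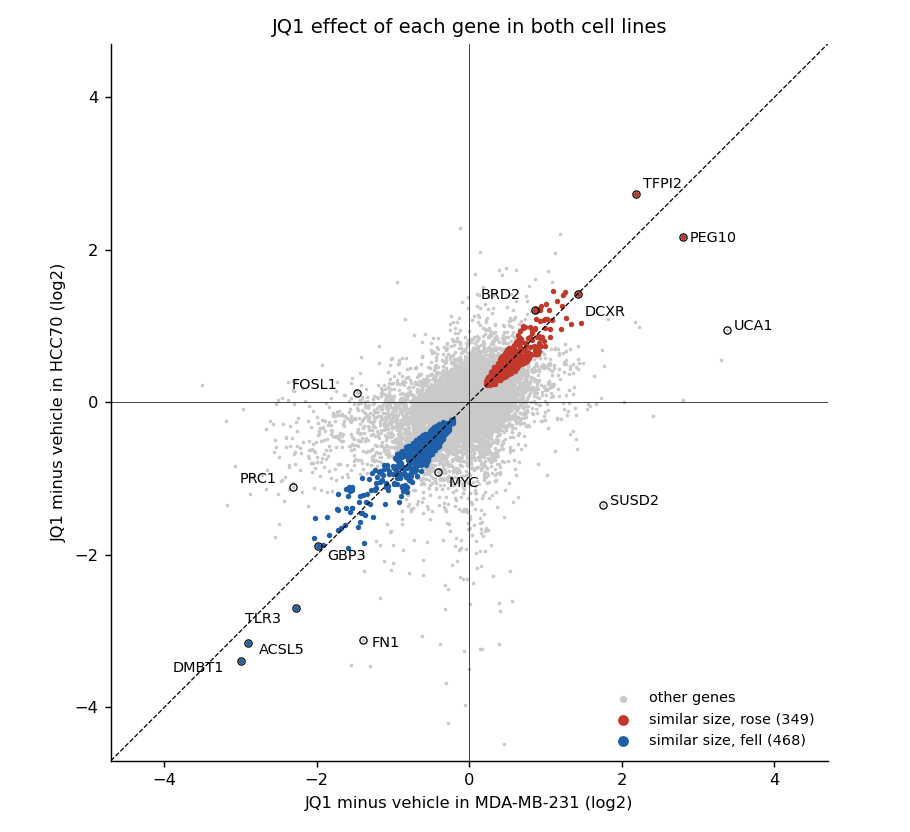
JQ1 effect of each of 14884 genes in MDA-MB-231 (horizontal axis, log2) against its effect in HCC70 (vertical axis, log2); the dashed line marks equal effects. The 349 red and 468 blue genes have the same sign and similar size, with TFPI2 and PEG10 at the upper right and DMBT1, ACSL5 and TLR3 at the lower left. FN1 lies below the line, PRC1 lies above it, UCA1 lies off it and SUSD2 has opposite signs.

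The 817 genes of similar size were 5.49% of genes tested, 2.34% rising and 3.14% falling. These 817 genes were chosen by the same effects, so their changes and the intervals of their line differences are given as a description. In most of them the change was modest. The rises had a median of 0.53 (quartiles 0.41 and 0.65) and the falls a median of -0.59 (quartiles -0.82 and -0.44), and 153 of the rises and 162 of the falls were under 0.5 in size. They were brighter than genes in general, with a median level of 8.06 for those that rose and 7.55 for those that fell, beside 6.25 over all genes tested. Protein-coding genes made up 93.4% of the rises, 95.1% of the falls and 80.1% of all genes, and long noncoding RNAs 4.58%, 2.78% and 9.39%. In 807 of the 817 the JQ1 arrays lay wholly to one side of the vehicle arrays in each line, as they did, in the same direction in each line, for 17.5% of genes tested. The difference between the line effects was called for 6 of the 817, beside 15.0% of genes tested. Membership near the boundary was loose: 388 of the 817 stayed in whichever 1 of the 12 arrays was left out, and 574 stayed without the 3 arrays numbered 3.

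Of the 817 genes, 69 changed by at least 1 (log2) in each line, 15 rising and 54 falling. All 69 had non-overlapping arrays in each line, beside 17.5% of genes tested in the same direction. All 69 stayed called in each line whichever 1 array was left out, and 58 also kept their similar size each time. They were chosen by a call and a large change in each line, so non-overlap and stable calls largely follow from the choice. The genes at the edge of the similar-size rule show where it divides. IRAK1, TRANK1 and BAIAP2 lay just inside, with ratios of the smaller to the larger change of 0.701, 0.705 and 0.707. MT1F (0.696), PDE8B (0.694) and CLIC3 (0.689) lay just outside, although each changed by over 1 in both lines.

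Among the rises, the largest were in TFPI2, a Kunitz-type inhibitor of serine proteases in the extracellular matrix, and PEG10, an imprinted gene derived from a retrotransposon. TFPI2 was at 8.90, 8.87 and 8.76 in vehicle-treated and 10.94, 11.10 and 11.04 in JQ1-treated MDA-MB-231. In HCC70 it was at 7.04, 7.25 and 7.20 with vehicle and 9.98, 9.86 and 9.88 with JQ1. All JQ1 arrays were high, by 2.46 ± 0.10 (SE, n = 6 arrays per treatment) over both lines. PEG10 went from 9.39, 9.28 and 9.0 to 12.06, 11.96 and 12.05 in MDA-MB-231, and from 6.53, 6.49 and 6.44 to 8.76, 8.71 and 8.50 in HCC70. Its change over both lines was 2.48 ± 0.12, and the groups did not overlap although the lines started from different levels. These rises were alike but not equal: the HCC70 minus MDA-MB-231 difference was 0.56 for TFPI2 (95% interval 0.29 to 0.82) and -0.63 for PEG10 (-0.96 to -0.30).

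Metabolic enzymes and an AP-1 subunit rose by closely matched amounts. DCXR, a carbonyl and xylulose reductase, was at 9.56, 9.54 and 9.55 with vehicle and 11.06, 11.02 and 10.84 with JQ1 in MDA-MB-231. In HCC70 DCXR was at 10.19, 10.44 and 10.35 with vehicle and 11.70, 11.78 and 11.75 with JQ1. Every JQ1 array of DCXR lay above every vehicle array of its line, and the rise was 2.68-fold and 2.67-fold, with an interval for the log2 difference of -0.28 to 0.27. PNPLA2, the lipase that starts the breakdown of stored triglyceride, rose by 1.22 and 1.41 in MDA-MB-231 and HCC70, although its dimmer transcript cluster gave 0.76 over both lines. JUND, a JUN-family subunit of AP-1, went from 8.71, 8.66 and 8.81 to 9.97, 9.92 and 9.94 in MDA-MB-231 and from 8.52, 8.79 and 8.68 to 9.94, 9.94 and 9.88 in HCC70. JUND thus had nearly the same levels in both lines before and after treatment, and rose by 1.24 ± 0.065. SLFN5, of the Schlafen family, rose by 1.08 in each line.

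The other large rises held a spread of functions. Over both lines the change was 1.35 for LOC90246, 1.28 for the tuftelin gene TUFT1, 1.25 for BAIAP2, an adaptor at the membrane and actin cytoskeleton, 1.24 for the carboxypeptidase CPA4, 1.18 for ADIRF and 1.13 for AQP3, a channel for water and glycerol. KIAA0513, the lysosomal protease gene LGMN and TM7SF2, which encodes a sterol reductase, complete the 15 large rises.

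The largest falls were in a secreted mucosal defence protein, a lipid enzyme and a sensor of viral RNA. DMBT1, the secreted scavenger-receptor protein, was at 7.43, 7.66 and 7.64 with vehicle and 4.23, 4.73 and 4.81 with JQ1 in MDA-MB-231. In HCC70 DMBT1 was at 9.87, 9.98 and 10.04 with vehicle and 6.61, 6.59 and 6.53 with JQ1. In both lines all JQ1 arrays were low, and the change over both lines was -3.19 ± 0.11. ACSL5, which couples long-chain fatty acids to coenzyme A, went from 9.0, 9.10 and 8.90 to 6.08, 6.19 and 6.03 in MDA-MB-231, and from 9.23, 9.21 and 9.13 to 6.27, 5.90 and 5.91 in HCC70. The ACSL5 change was -3.03 ± 0.086, 7.46-fold and 8.94-fold lower in the lines. TLR3, the endosomal receptor for double-stranded RNA, went from 6.97, 7.13 and 6.65 to 4.64, 4.68 and 4.62 in MDA-MB-231, and from 8.01, 8.15 and 8.04 to 5.59, 5.59 and 4.92 in HCC70. Its change was -2.49 ± 0.13. DMBT1 and TLR3 ended below the lower quartile of genes (4.82) in JQ1-treated MDA-MB-231, so their falls there are read as lower bounds, and 7 of the 54 large falls ended that low in at least 1 line.

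Further falls came close to the same size in both lines. XAF1, an interferon-inducible factor that opposes inhibitors of apoptosis, was at 8.35, 8.39 and 8.34 with vehicle and 6.39, 6.60 and 6.34 with JQ1 in MDA-MB-231, and at 8.41, 8.13 and 8.04 and then 6.35, 6.54 and 6.09 in HCC70. Its groups did not overlap, and the difference of the line effects was 0.05 (95% interval -0.35 to 0.44). CTPS2, a synthase of the nucleotide CTP, fell by 1.63 in MDA-MB-231 and 1.61 in HCC70. SORBS2, a cytoskeletal adaptor, fell by 1.72 and 1.68, and SMAGP, a small membrane glycoprotein of epithelial junctions, by 1.69 and 1.64. The remaining genes among the 12 largest falls, ranked by the smaller of the line changes, were GBP3 (described with the immune genes), GLIPR1 (-1.91 over both lines), CRYZL2P (-1.79), the pseudokinase TRIB2 (-1.77, with -0.43 on its dimmer cluster) and PLAAT4, an interferon- and retinoid-inducible phospholipid enzyme (-1.75).

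**Figure D2:**
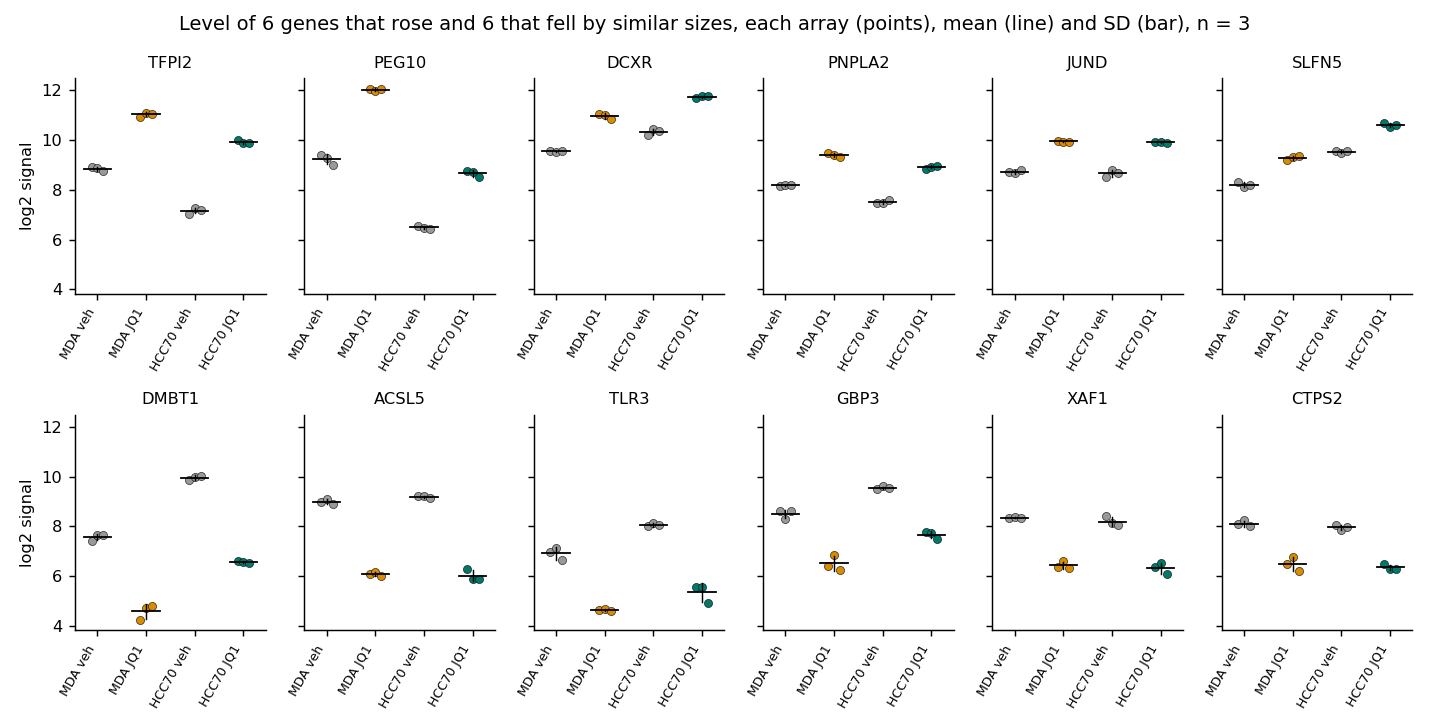
Log2 signal of 6 genes that rose (upper row) and 6 that fell (lower row) on each of the 12 arrays, with the mean (line) and SD (bar) of 3 arrays; "veh" is vehicle and "MDA" is MDA-MB-231. In each panel the JQ1 points lie wholly to one side of the vehicle points of the same line, and DMBT1 and TLR3 fall to near 4.6 in JQ1-treated MDA-MB-231.

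The large falls included genes of innate immunity. Antiviral defence in epithelial cells runs from RNA sensors and their adaptors through interferon-regulatory factors to interferon, and interferon receptors then switch on a broad set of effector genes through transcription factors that bind a repeated GAAA element. Beside TLR3, the falls of at least 1 in each line held IRAK1, a kinase of toll-like receptor signalling (-1.46 over both lines), the signalling adaptor TRAF5 (-1.50), the inflammasome adaptor PYCARD (-1.44) and MLKL, the executor of necroptosis (-1.50). They also held UBA7, which activates the ubiquitin-like modifier ISG15 (-1.55), and GBP3, a guanylate-binding protein, at -1.93 ± 0.10. TRAF5, PYCARD, MLKL and UBA7 were picked out after their values were seen.

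List counts here and below stand beside shares over all genes tested of 10.4% rising and 15.3% falling over both lines. In each line by itself these shares were 4.09% and 6.89%, and by a similar size 2.34% and 3.14%. A count near these shares is no result about its list. In the list of interferon-stimulated genes, 21 of 30 measured members fell and 1 rose over both lines, with a median of -0.70 beside 0.01 for all genes tested. In each line by itself 14 fell and 1 rose, and 7 fell by a similar size: XAF1, IFITM2, IFI44, DTX3L, TRIM14, BST2 and IFIT5. IFITM2, which hinders the entry of viruses, went from 9.87, 9.78 and 9.67 to 7.89, 8.07 and 7.79 in MDA-MB-231. In HCC70 it went from 7.51, 7.70 and 7.51 to 6.19, 6.16 and 5.87. Its change over both lines was -1.68 ± 0.094. IFITM2 and GBP3 have close paralogs with which probes may be shared. Of the others IFI44 changed by -1.57, DTX3L, a ubiquitin ligase, by -0.97, TRIM14, a mitochondrial signalling adaptor, by -0.91, the tether of budding virus BST2 by -0.52 and IFIT5 by -0.49. The list as a whole was not of similar size in the lines, since the difference of the line effects was called for 16 of 30. IFITM1 (-1.55 and -3.44) and IFIT3 (-1.17 and -2.56) fell further in HCC70, and IFI44L fell in HCC70 (-4.21) but was not called in MDA-MB-231 (-0.27); these genes were picked out after their values were seen. IRF7, a transcription factor of the interferon response, rose in both (0.85 and 0.56). Of the 3 antigen presentation genes measured, the peptide-loading factor TAPBP fell by a similar size, going from 10.25, 10.23 and 10.02 to 9.85, 9.77 and 9.76 in MDA-MB-231 and from 9.73, 9.66 and 9.78 to 9.23, 9.33 and 9.20 in HCC70. The 18 measured NF-kB and cytokine genes included 8 falls and 0 rises, and the macrophage growth factor CSF1 (-0.46) was the member of similar size.

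The element that interferon-activated factors recognise was looked for in RefSeq promoters (build GRCh38.p14, from 250 bases before to 50 bases after each start). The motif, GAAA followed after any 2 bases by a second GAAA, on either strand and with overlapping matches counted, was in 19 of the 395 promoters matched among the 468 similar-size falls (4.81%), in 3 of 292 matched among the 349 rises (1.03%), in 316 of the 10749 matched among all genes tested (2.94%) and in 3.57% of the 35116 promoters in the table. Of the genes tested 72.2% had a promoter in the table, under the 80% asked for here, so a comparison with them is void and their shares are given for reference. A match is a description of the sequence, and no test was made. The same promoters were searched for 3 other kinds of motif on both strands. CHR elements (TTTGAA or TTCGAA), known from cell-cycle promoters, were in 14.4% of the falls, 8.22% of the rises, 13.2% of the genes tested and 16.4% of all promoters. E2F sites (TTTGGCGC, TTTCGCGC or TTTCCCGC) were in 3.8%, 3.42%, 3.73% and 2.74%, and the MYC and CLOCK E-box CACGTG in 10.4%, 11%, 9.02% and 7.26%. Promoters of the genes that rose had a median GC content of 67.7%, those of the falls 63.0%, those of genes tested 63.3% and all promoters 58.7%. In 8 of the 19 falling genes with known roles in antiviral or antigen-presentation pathways, picked after the matches were seen, every match lay within 100 bases before to 20 bases after the start, and these 120-base windows are shown so that the element can be compared between genes. Every match also lay there in 5 falling genes without such a known role (PCDHB15, FOXD2-AS1, TMEM109, NSMCE4A and TCF20), whereas BST2 had 2 matches in its promoter that did not both lie there. Capitals mark the motif on either strand, and a stretch with TTTC repeated is the element read from the other strand.
TLR3: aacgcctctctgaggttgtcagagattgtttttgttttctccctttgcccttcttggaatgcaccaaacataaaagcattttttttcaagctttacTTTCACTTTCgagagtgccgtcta
GBP3: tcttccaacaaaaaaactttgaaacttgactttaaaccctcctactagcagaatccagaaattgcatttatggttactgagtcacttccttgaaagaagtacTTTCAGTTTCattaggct
IFI44: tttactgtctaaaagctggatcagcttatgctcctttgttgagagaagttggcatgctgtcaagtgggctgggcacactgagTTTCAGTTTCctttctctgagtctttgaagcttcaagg
DTX3L: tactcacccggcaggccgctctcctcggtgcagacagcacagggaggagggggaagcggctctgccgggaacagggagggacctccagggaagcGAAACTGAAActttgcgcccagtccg
TRIM14: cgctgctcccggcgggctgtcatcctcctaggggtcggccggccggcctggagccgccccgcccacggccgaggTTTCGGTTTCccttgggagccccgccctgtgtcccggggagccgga
EIF2AK2: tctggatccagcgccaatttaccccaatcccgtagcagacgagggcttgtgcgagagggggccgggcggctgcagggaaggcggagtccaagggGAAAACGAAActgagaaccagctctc
IFIT5: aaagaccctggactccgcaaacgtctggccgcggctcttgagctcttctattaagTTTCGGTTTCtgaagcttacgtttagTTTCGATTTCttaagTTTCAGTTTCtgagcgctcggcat
TAPBP: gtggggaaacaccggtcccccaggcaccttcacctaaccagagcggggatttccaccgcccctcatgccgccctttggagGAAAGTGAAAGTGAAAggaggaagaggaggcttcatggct
The windows are, in the same order, chr4:186069056-186069175 on the plus strand, chr1:89022847-89022966 minus, chr1:78649689-78649808 plus, chr3:122564238-122564357 plus, chr9:98119203-98119322 minus, chr2:37156961-37157080 minus, chr10:89414468-89414587 plus and chr6:33314059-33314178 minus, each printed 5′ to 3′ in the direction of the gene. Counted from the start site, the first base of the match is at -4 in TLR3, 3 in GBP3, -18 in IFI44, -6 in DTX3L, -26 in TRIM14 and -6 in EIF2AK2. IFIT5 has 3 matches, starting at -45, -19 and -4, and TAPBP has 2 that overlap, starting at -20 and -14. Beside these sequences stand changes over both lines of -2.49 for TLR3, -1.93 for GBP3, -0.57 for EIF2AK2, the kinase that halts translation on viral RNA, -0.49 for IFIT5 and -0.42 for TAPBP, so genes that share the element differed widely in the size of the fall. XAF1, with a fall of 1.89, had no match in its promoter, and IFITM2 was not among the promoters matched.

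Among the readouts tied to JQ1 itself, BRD2, HEXIM1, MYC and CDK6 changed in each line, and BRD2 alone of these 4 was of similar size. BRD2, a direct target, went from 8.66, 8.89 and 8.91 to 9.66, 9.61 and 9.78 in MDA-MB-231 and from 8.46, 8.53 and 8.43 to 9.67, 9.75 and 9.65 in HCC70. All JQ1 arrays were higher, by 1.04 ± 0.083 over both lines (limma adjusted p = 1.4e-06), and BRD2 was of similar size by a narrow margin (ratio 0.709), kept in 8 of the 12 fits that left out 1 array and not without the 3 arrays numbered 3. HEXIM1, the P-TEFb inhibitor whose rise serves as a pharmacodynamic readout of BET inhibitors, rose by 0.85 ± 0.12 (limma adjusted p = 0.00011), by 0.59 and 1.11 in the lines. Its dimmer cluster gave -0.02 over both lines, from 0.51 in MDA-MB-231 and -0.55 in HCC70, so the rise in HCC70 was on the brighter cluster only. MYC fell by 0.66 ± 0.10 (limma adjusted p = 0.00026), from 8.72, 8.75 and 8.75 to 8.42, 8.30 and 8.28 in MDA-MB-231 and from 7.32, 7.5 and 7.63 to 6.65, 6.65 and 6.41 in HCC70, and the difference between the lines was called (limma adjusted p = 0.030). CDK6, a G1 kinase, fell by 0.41 ± 0.070. BRD3 (-0.03), MCL1 (0.19), BCL2 (-0.27), CCND1 (-0.26) and FOSL1 (-0.67, limma adjusted p = 0.057) were not called over both lines. When the effects of the lines were averaged, with their difference kept out of the residual spread, limma called FOSL1 (adjusted p = 0.00027), CCND1 (0.0063) and MCL1 (0.043), so these calls rest on the model. Each was called in 1 line by itself, FOSL1 in MDA-MB-231 (-1.47) and CCND1 (-0.64) and MCL1 (0.39) in HCC70.

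Of 14 measured genes for BET proteins and control of P-TEFb, 5 rose and 1 fell (3 and 1 without the 3 arrays numbered 3). The fall was NELFCD, a subunit of the factor that holds paused polymerase, which changed by -0.63 and by similar sizes, -0.67 and -0.59. In the network around MYC and its partner MAX, 2 of 12 genes rose and 2 fell, beside 10.4% and 15.3% of all genes tested. Without any 1 of the 6 MDA-MB-231 arrays or without those 3 arrays 1 fell. After centring or quantile normalization 4 rose and 1 fell. The rises on the deposited scale were MXD1 and MXD4, repressors that compete with MYC for MAX, and both were of similar size. MXD1 went from 6.92, 7.10 and 6.94 to 7.84, 7.71 and 7.63 in MDA-MB-231 and from 7.37, 7.53 and 7.63 to 8.14, 8.22 and 8.11 in HCC70, with no overlap. MXD4 rose by 0.61 ± 0.073, with changes of 0.68 and 0.54.

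Among genes that MYC is known to regulate, 10 of 17 measured ribosome biogenesis genes fell and 0 rose, with a median of -0.37. Those of similar size were FBL, the fibrillarin methyltransferase of nucleolar RNA (-0.55), WDR43 (-0.41) and NHP2 (-0.38). In each line by itself 7 of the 17 fell, a count of 4 without HCC70 vehicle replicate 2 or without the 3 arrays numbered 3, and the 3 of similar size became 5 without HCC70 JQ1 replicate 1 and 1 without those 3 arrays. After centring 9 fell, 1 rose and 1 was of similar size. Of 10 nucleotide and polyamine genes 4 rose and 4 fell, and PPAT, which starts purine synthesis, was the member of similar size, rising by 0.39.

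Mitotic genes fell together in both lines, yet 0 of them fell by a similar size. All 34 measured genes of the spindle, kinetochore and cytokinesis list fell over both lines, with a median of -1.32, and 28 fell in each line by itself. The median change was -2.04 in MDA-MB-231 and -0.53 in HCC70, and the difference of the line effects was called for all 34. PRC1, which bundles microtubules of the spindle midzone, went from 10.15, 10.03 and 9.82 to 7.73, 7.69 and 7.66 in MDA-MB-231 and from 9.93, 9.86 and 9.87 to 8.88, 8.74 and 8.72 in HCC70. The arrays did not overlap in either line, and PRC1 changed by -1.71 ± 0.18 over both (limma adjusted p = 1.3e-05). CCNB2, which encodes cyclin B2, changed by -1.85 ± 0.22, by -2.51 and -1.20 in the lines.

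A regulator of these genes did fall by a similar size. LIN9, a subunit of the MuvB complex that joins B-MYB and FOXM1 at promoters of mitotic genes, went from 7.16, 7.15 and 6.95 to 5.82, 5.93 and 5.57 in MDA-MB-231 and from 7.92, 7.96 and 7.87 to 6.94, 7.02 and 6.77 in HCC70. It changed by -1.16 ± 0.089, and the interval of the line difference was -0.02 to 0.64. LIN9 was named for its similar size, so these values only describe it. It was the 1 member of similar size among 12 measured MuvB, B-MYB and FOXM1 regulators, of which 6 fell and 1 rose, a rise lost in 9 of the 12 fits that left out 1 array and without the 3 arrays numbered 3. Of 15 G1 cyclin, CDK and E2F genes 11 fell (7 without the 3 arrays numbered 3), and the retinoblastoma gene RB1 was the member of similar size (-0.39). Of 22 replication genes 17 fell, and of 11 homologous recombination and Fanconi genes 9 fell (5 without those 3 arrays), with 0 of similar size in either list (1 of the replication genes without MDA-MB-231 vehicle replicate 1 or HCC70 vehicle replicate 2). Among them MCM5, of the replicative helicase, fell by 1.12 ± 0.16, and RAD51AP1, which acts in homologous recombination, by 1.43 ± 0.19. In MDA-MB-231 by itself all 22 replication and 11 recombination genes fell. In each line by itself 7 (3 in 2 of the 12 fits that left out 1 array) and 3 (5 in 2 fits) did, and 2 replication genes rose in HCC70. Median changes in MDA-MB-231 and HCC70 were -1.15 and -0.16 for replication, -1.14 and -0.17 for recombination and -0.91 and -0.21 for the G1 list. The condensin gene SMC2 and the end-joining gene XRCC4, which are on none of these lists and were picked out after their values were seen, were of similar size, at -1.33 and -1.43.

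**Figure D3:**
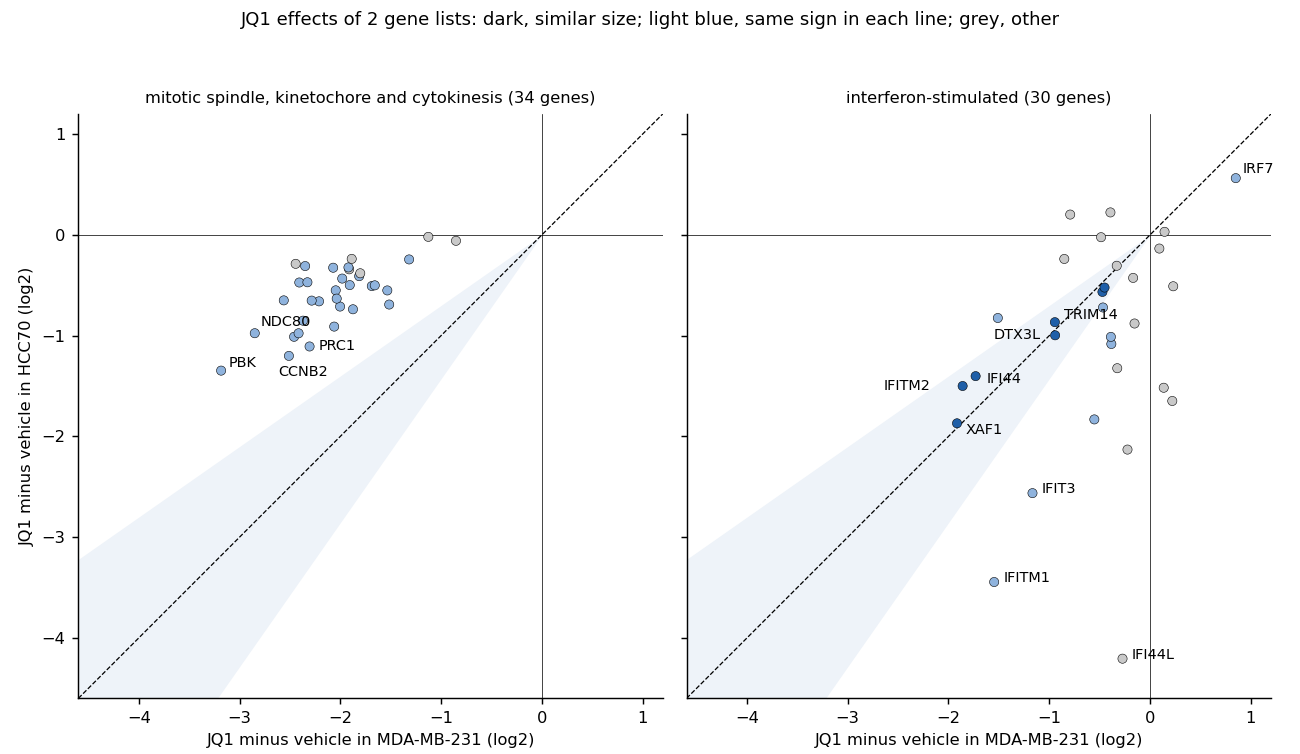
JQ1 effect in MDA-MB-231 (horizontal axis, log2) against HCC70 (vertical axis, log2) for 34 mitotic genes (left) and 30 interferon-stimulated genes (right); the band marks falls whose smaller change is at least 0.7 of the larger. All mitotic genes lie above the band, with larger falls in MDA-MB-231, while 8 interferon-stimulated genes lie in it, 7 of which were called in each line, and IFITM1, IFIT3 and IFI44L lie below it.

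Immediate early and YAP target genes were among the lists in which rises outnumbered falls. The 19 measured immediate early and AP-1 genes included 7 rises and 2 falls (4 falls without HCC70 vehicle replicate 1), with JUND and IER2 (0.52) of similar size. After centring or quantile normalization 10 of them rose. Of 10 YAP and TEAD target genes 6 rose and 0 fell, with a median of 0.40. AMOTL2, a YAP-binding scaffold, rose by 0.75 and 0.60 in the lines. ANKRD1, a nuclear ankyrin protein widely used as a YAP readout, went from 10.53, 10.53 and 10.74 to 11.15, 11.24 and 11.23 in MDA-MB-231 and from 4.63, 4.7 and 4.66 to 5.22, 5.25 and 5.0 in HCC70. ANKRD1 therefore rose by like log2 amounts (0.61 and 0.49) from very unequal levels, and in vehicle-treated HCC70 it lay below the lower quartile of genes (4.81), where the size of a rise is a lower bound. In each line by itself 5 of the 10 rose, but 3 did without MDA-MB-231 vehicle replicate 2, HCC70 vehicle replicate 2, HCC70 JQ1 replicate 1 or HCC70 JQ1 replicate 2, and 2 without the 3 arrays numbered 3. SKI, a repressor of TGF-beta signalling, rose by 0.67 ± 0.075 and was the member of similar size among 8 TGF-beta response genes.

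Falls of similar size included some clock and helix-loop-helix factors. Of 13 circadian clock and PAR bZIP genes 6 fell and 2 rose (1 rose without the 3 arrays numbered 3). CLOCK, the acetyltransferase partner of BMAL1, went from 10.26, 10.21 and 10.28 to 9.51, 9.42 and 9.39 in MDA-MB-231 and from 9.97, 9.82 and 9.88 to 9.29, 9.20 and 9.13 in HCC70, a change of -0.75 ± 0.064 without overlap. The period genes PER3 (-0.76 and -1.04) and PER2 (-0.55 and -0.54) were also of similar size. The E proteins TCF12 (-0.71) and TCF3 (-0.34), partners of tissue-specific helix-loop-helix factors, fell, and LFNG, a glycosyltransferase that tunes Notch receptors, rose (0.51), among 18 genes of which 4 fell and 3 rose, beside 15.3% and 10.4% of all genes tested, and 2 fell and 5 rose after centring. Without MDA-MB-231 JQ1 replicate 1 the falls were 2, and LFNG and TCF3 were of similar size in 5 and 7 of the 12 fits that left out 1 array.

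Of 27 chromatin modifier genes 12 fell and 2 rose (7 and 1 without the 3 arrays numbered 3; 1 rise also without MDA-MB-231 JQ1 replicate 2 or HCC70 JQ1 replicate 1). After centring 8 fell and 4 rose, and after quantile normalization 9 and 3. KAT2A, the GCN5 histone acetyltransferase, went from 8.71, 8.74 and 8.61 to 7.85, 7.96 and 7.83 in MDA-MB-231 and from 7.88, 7.98 and 8.01 to 6.64, 6.92 and 7.0 in HCC70, a change of -0.96 ± 0.084. HDAC2, the other member of similar size, changed by -0.30, and its much dimmer cluster gave 0.13. Among 12 long noncoding RNAs, 4 rose and 1 fell (2 fell without MDA-MB-231 JQ1 replicate 1). MALAT1, an abundant nuclear RNA, rose by 0.55 ± 0.070 and CYTOR, an RNA often raised in tumours, fell by 1.08 ± 0.071, with the same direction on all 3 clusters of each.

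Stress, lipid and redox lists gave scattered members. Of 13 unfolded protein and amino acid stress genes 9 fell and 0 rose, and XBP1, the factor spliced by IRE1, was of similar size, going from 8.62, 8.68 and 8.74 to 7.89, 7.92 and 7.71 in MDA-MB-231 and from 9.13, 9.23 and 9.21 to 8.13, 8.08 and 8.0 in HCC70. Of 9 chaperone genes 2 rose, the near-identical copies HSPA1A (0.63) and HSPA1B (0.55), whose signals cannot be told apart. Of 16 fatty acid genes 5 fell and 1 rose (0 rose without the 3 arrays numbered 3 and 2 after centring or quantile normalization), with ACSL5 the member of similar size. Of 13 cholesterol genes 3 fell and 1 rose, beside 15.3% and 10.4% of all genes tested (0 rose without those arrays or without HCC70 vehicle replicate 3). The synthase HMGCS1 was of similar size (-0.46). Single members of similar size were the histone demethylase KDM3A among 13 hypoxia and glycolysis genes (0.64; 5 rose, or 3 without the 3 arrays numbered 3 and 8 after centring or quantile normalization, and 1 fell, or 2 without MDA-MB-231 vehicle replicate 3), KEAP1, which restrains NRF2, among 12 redox genes (-0.45; 4 rose and 1 fell), the respiratory subunit CYC1 among 8 oxidative phosphorylation genes (-0.29; 2 fell, or 1 in 7 of the 12 fits that left out 1 array, without the 3 arrays numbered 3 or after centring) and UVRAG among 24 lysosome and autophagy genes (-0.32; 6 rose, or 9 after centring and 10 after quantile normalization, and 4 fell, the falls being 2 without any 1 of the 6 MDA-MB-231 arrays or without the 3 arrays numbered 3).

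Several of the small members named from the lists were of similar size in only some of the 12 fits that left out 1 array: WDR43 and KRT8 in 9, BRD2, PPAT, PER3 and HSPA1A in 8, KEAP1 and TCF3 in 7, NHP2 and RB1 in 6, LFNG, HDAC2 and UVRAG in 5, and CYC1 in 4. The other list members named as of similar size were so in 10 to 12 of them. Without the 3 arrays numbered 3, PPAT, RB1, SKI, XBP1, KEAP1 and CYC1 were no longer of similar size, and the immediate early and chromatin lists had 1 such member each. Of members that were the only one of similar size in their list, RB1, UVRAG, CYC1 and KEAP1 lost it after centring. TAPBP, XBP1, HSPA1A, UVRAG, KDM3A, CYC1 and KEAP1 lost it after quantile normalization. Lists with more such members also lost some. Similar-size falls of the chromatin and of the Notch and helix-loop-helix lists went from 2 to 1 in either setting, and those of the ribosome list from 3 to 1 after centring. After quantile normalization the interferon falls went from 7 to 6, the clock falls from 3 to 2, and the immediate early and YAP rises from 2 to 1.

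Of the last lists described, the ERK, p53, BCL2 family and mesenchymal lists had no member of similar size, unlike the epithelial list. Of 10 ERK feedback genes 4 fell and 1 rose, with ETV4 at -1.59 ± 0.24 and SPRY2 at -0.67 ± 0.092. Of 8 p53 targets 3 rose and 1 fell (0 fell without MDA-MB-231 vehicle or JQ1 replicate 1 or 2, or without the 3 arrays numbered 3), with RRM2B at 0.48 and TP53INP1 at 0.61. Of 17 BCL2 family and apoptosis genes 2 rose and 3 fell, beside 10.4% and 15.3% of all genes tested. In 5 of the 12 fits that left out 1 array 1 rose, and without those 3 arrays 1 rose and 5 fell. After centring 4 rose and 3 fell, and after quantile normalization 4 rose and 2 fell. BCL2L11, which encodes the killer protein BIM, rose by 0.92 ± 0.12, more in MDA-MB-231 (1.27) than in HCC70 (0.56, limma adjusted p of the difference = 0.0073). Of 15 epithelial markers 4 rose and 0 fell (1 or 2 fell in 4 of the 12 fits), with the simple-epithelium keratins KRT8 (0.41) and KRT19 (0.36) of similar size. Of 11 mesenchymal markers 5 fell (3 without the 3 arrays numbered 3) and 0 rose (1 in 3 of the 12 fits), with 0 of similar size, and fibronectin (FN1) fell by 2.26 ± 0.24, by 1.40 in MDA-MB-231 and 3.12 in HCC70.

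**Figure D4:**
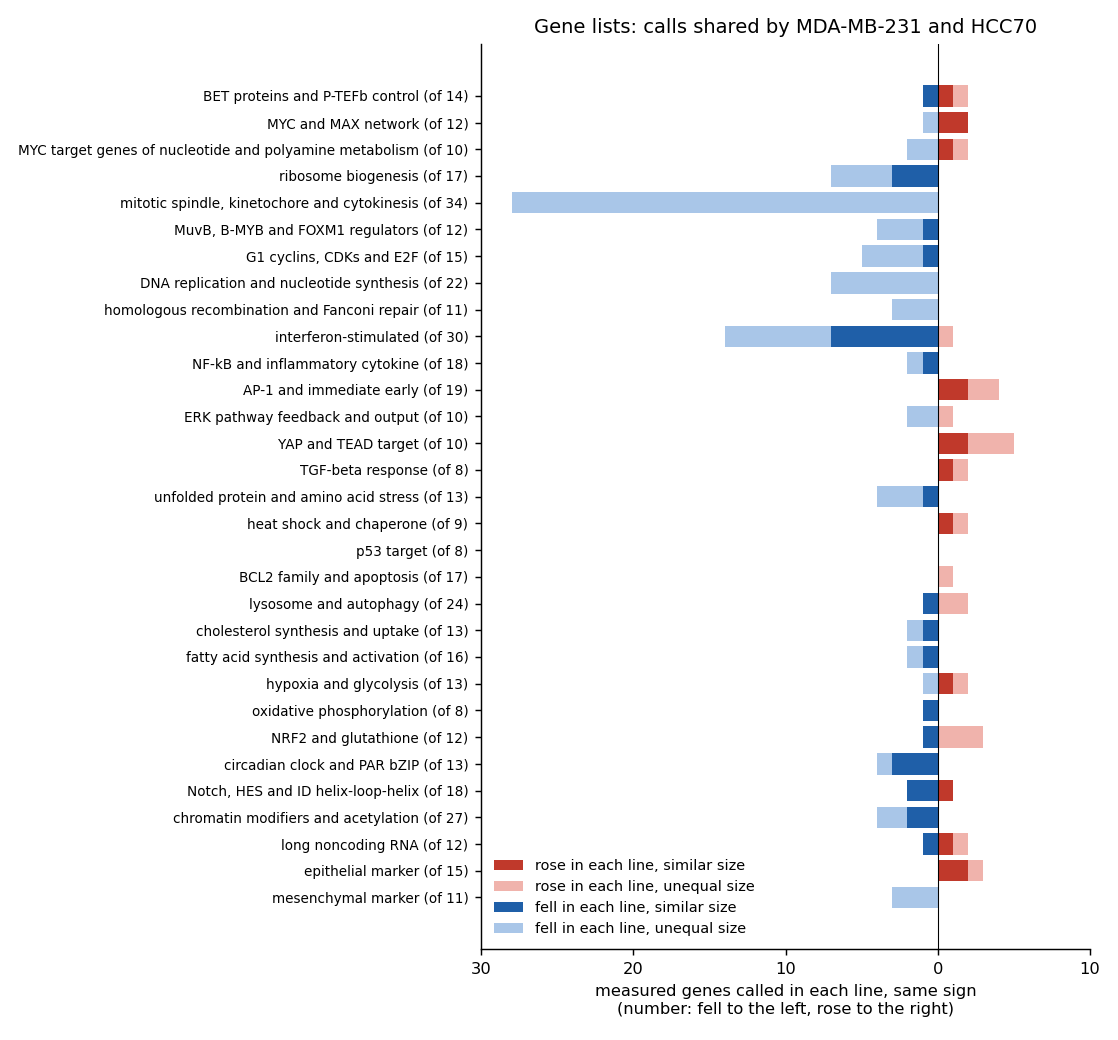
Number of measured genes of each list called in each line with the same sign, falls to the left of 0 and rises to the right; dark parts are of similar size, light parts of unequal size. The mitotic list has the longest bar, 28 falls with 0 of similar size, and the interferon-stimulated list has 14 falls with 7 of similar size.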

How the data were processed

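RNA was extracted with Trizol, treated with DNase, and 150 ng per sample was labelled for Human Gene 2.0 ST arrays, per the labels' protocols. The authors deposited log2 values per transcript cluster; the submitters' processing notes list oligo, RMA and limma with no version, and give no genome build. Of 53617 clusters, 16098 had 1 gene symbol and 37519 none. The brightest cluster was kept for 779 genes with several, leaving 14884 genes, with no filter on dim genes. limma 3.58.1 (R 4.3.3) fitted cell line plus treatment, and 4 group means for each line's effect and their difference, on all 12 arrays; tests were two-sided with Benjamini-Hochberg adjustment. Standard errors are those of the coefficients. Changes ending below a group's lower quartile (4.78 to 4.82) are lower bounds.

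Members, lists, cell markers and naming rules were chosen with earlier results of these data known, so no list is independent evidence. Named were the 12 largest similar-size rises and falls (by the smaller change), 10 readouts, up to 2 members per list and direction, and genes at the edge of the size rule or with opposite signs; other genes complete a stated class or are said to be picked later. The core histone and ABC transporter lists had 0 genes measured. Alternatives were the replicate block, moderation, dim genes, clusters, normalization, array weights, size rules and leaving out each array; dropping the 3 arrays numbered 3 was added after seeing the data. On simulated data, 47, 47 and 46 genes were given equal changes of 0.5, 1 and 2. Of these 78.7%, 97.9% and 100% were called over both lines, and 36.2%, 85.1% and 97.8% were classed as similar size. Changes in MDA-MB-231 alone (20 genes at each size) were called over both lines in 0%, and 5.15% of all 136 calls were false. The class of similar size thus missed many small shared changes in the simulation. Far fewer genes changed there than the 25.7% called in the data, so these rates do not carry over.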

Additional observations from a re-analysis of the deposited data

Results flagged for a closer look

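For 26 of the genes named by the stated rules, the test of the difference of the JQ1 effects between the lines passed the threshold (limma with Benjamini-Hochberg adjustment over all genes), and each difference below is HCC70 minus MDA-MB-231 on the log2 scale, n = 3 arrays per group. Genes called with opposite signs had the widest differences of these 26: SUSD2 (-3.10), DBP (-1.97), FBXO32 (1.94) and MIR3143 (2.52). Both SUSD2, a membrane protein, and DBP, a clock-controlled PAR bZIP factor, rose in MDA-MB-231 and fell in HCC70, whereas FBXO32, a ubiquitin ligase subunit, and the microRNA gene MIR3143 did the reverse. Genes that fell in each line with the larger fall in MDA-MB-231 gave positive differences: ETV4 (1.54), CCNB2 (1.31), RAD51AP1 (1.26), PRC1 (1.2), MCM5 (1.09), PDE8B (0.78), RRM1 (0.68), IRAK1 (0.51), SPRY2 (0.48), TRANK1 (0.48) and BARD1 (0.44). The falls of FN1 (-1.72) and MYC (-0.50) were larger in HCC70. Of the genes that rose in each line, TFPI2 (0.56), CLIC3 (0.49) and TUFT1 (0.36) rose more in HCC70, and BCL2L11 (-0.71), PEG10 (-0.63) and BAIAP2 (-0.43) rose more in MDA-MB-231. The remaining 3 were called in 1 line each: FOSL1 (1.60), which fell in MDA-MB-231, CCND1 (-0.77), which fell in HCC70, and CD68 (0.84), which rose in HCC70. TFPI2, PEG10, TUFT1, BAIAP2, IRAK1 and TRANK1 are the 6 of the 817 genes of similar size with a called difference.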

How the results depend on the processing

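The count over both lines stayed within 1.5 times of 3828 under the replicate block, moderation, dim gene, cluster-mean, normalization, weight and leave-one-out settings (3464 to 3752 when 1 array was left out) and without the 3 arrays numbered 3 (3065); with all transcript clusters 6743 were called, and 343 with a log2 change of at least 1. The mean of the line effects, which keeps their difference out of the residual spread, called 4773. Centring on array medians raised the rises from 1555 to 2414, and array weights raised the HCC70 calls from 3229 to 5110. The 817 genes of similar size became 1289 with a ratio of 0.5, 528 with 0.8 and 69 with both changes at least 1; leaving out 1 array gave 681 to 783, and a 90% interval of the difference within 1.5-fold gave 1055, 766 of them shared with the 817. Deviations of same-numbered arrays correlated at r = 0.155, 0.121 and 0.362 in MDA-MB-231 and -0.0588, 0.0147 and 0.0702 in HCC70. Arrays with different numbers gave -0.25 to 0.121 in MDA-MB-231 and -0.142 to 0.135 in HCC70. Same-numbered arrays thus correlated at or above all others in MDA-MB-231, and did not in HCC70. The main fits took the numbers as names in both lines, so a shared batch by number in MDA-MB-231 is left in their residual spread. With the replicate block of 6 pairs 3133 genes were called over both lines and 803 were of similar size, and with 3 blocks 3703 and 860. Among the named genes BRD3, not called in any setting, changed sign with quantile normalization (0.070), centring (0.036), array weights (0.022) and without MDA-MB-231 JQ1 replicate 1 (0.0026; lowest with 1 array left out -0.053), and the cause was not tested. Of 89 named genes tested, 9 changed a call or sign in at least 1 setting. Signal over background limits the size of 22 similar-size falls and 12 rises that end or start below a lower quartile, and 3 arrays per group limit the intervals on every difference between the lines, so a difference that misses the threshold does not show equal effects.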
